A study of Mus musculus with 27 samples.

Results

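The 130 genes described here are the long noncoding RNAs that GENCODE M21 files under processed_transcript (115 genes) or bidirectional_promoter_lncRNA (15 genes) and that reached a mean of at least 2 FPKM over the 3 nuclear libraries of day 0, out of 38123 genes in the files. Symbols starting with Snhg, Platr or Mir and 10 well-known lncRNA genes (among them Malat1, Neat1, H19 and Meg3) were set aside by name. FPKM is the number of sequenced fragments per gene, divided by transcript length and by library size. The genes were thus selected on their nuclear day 0 FPKM, and every comparison that has those libraries as one of its sides is given as a description with no test. They also enter the estimate of spread behind the other fraction tests, so fits of only the 2 groups compared are given beside these.

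The processed_transcript label covers spliced transcripts without an annotated open reading frame that fit no narrower class. A bidirectional-promoter lncRNA starts close to the start of a protein-coding gene and runs away from it on the other strand. Many such RNAs are capped, spliced and polyadenylated like mRNA, and they are known to be held in the nucleus or degraded there more often than mRNA is. Some serve as hosts, whose introns are cut into small nucleolar RNAs (snoRNAs, guides for the modification of ribosomal RNA) or microRNAs. Mouse embryonic stem cells are rich in miR-290 and miR-302 microRNAs, which need the RNase III enzyme Dicer for their last processing step.

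The libraries came from XY mouse embryonic stem cells of the DTCM23/49 lines, in which the RNase III domain of Dicer can be deleted. Deletion was induced with 800 nM 4-hydroxytamoxifen, Dicer-deficient colonies were selected and expanded in serum with leukemia inhibitory factor, and controls had ethanol. There were 9 groups of 3 biological replicates: whole cells on days 4, 8, 10 and 12 after loss of Dicer function and on day 0 before it, nuclei on days 12 and 0, and cytoplasm on days 12 and 0. All groups were grown on gelatin, and all 27 libraries were made from polyadenylated RNA with a directional protocol. The labels do not say whether replicates were separate cultures, and a p-value here speaks to library-to-library spread, which may be technical.

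Dicer1, the deleted gene, was checked first. It stood at 1.90, 1.90 and 1.68 FPKM in whole cells at day 10 and at 3.00, 2.73 and 3.45 FPKM in the day 12 cytoplasm, against 15.01, 16.02 and 17.9 FPKM in whole cells and 23.5, 21.2 and 22.9 FPKM in the cytoplasm at day 0. Day 12 nuclei had 5.46, 3.42 and 3.70 FPKM, against 15.1, 16.8 and 7.86 FPKM in day 0 nuclei, where the lowest value was that of replicate 3. The whole cell libraries labelled day 12 had 16.7, 13.8 and 13.4 FPKM, which goes against their label. They are called the libraries labelled day 12, and no direction drawn from them is read as an effect of Dicer loss. Total read counts are not in the files. Judged from the FPKM of genes with few reads, relative depth ran from 0.721 to 3.62 with the first day 4 library set to 1, and whole cells of day 0 were deepest (3.07 to 3.62). Replicate 3 of nucleus day 0 (correlation 0.912 and 0.926 with its group on log2 values), replicate 1 of nucleus day 12 (0.938 and 0.945) and replicate 3 of whole cell day 4 (0.936 and 0.952) stood apart from their groups. Comparisons that rest on them are given with and without them. In all, 60 of the 130 genes were highest in replicate 3 among the nuclear day 0 libraries, and without it 11 of the 130 would have fallen below 2 FPKM.

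Coordinates are those of GRCm38, taken by gene identifier. RefSeq held 98 of the 130 genes by the same identifier or symbol. It lists 88 of them as lncRNA, 9 as protein-coding (Cct6a, Ifi30, Tmem134, Ptpmt1, Trerf1, Gm11100, Zswim6, Tctn2 and Spata5l1) and 1, Abhd1, as a transcribed pseudogene. For those 9 the class came from the GENCODE label, and their values are FPKM of genes that RefSeq calls coding. All 130 had a spliced transcript, with a median exonic length of 2035 bases and a range of 198 to 9070. Chromosome 11 carried 24 of the genes, chromosome 2 carried 17 and the X chromosome 6.

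Most lay beside or across a protein-coding gene. In 60 of the 130, including all 15 of the bidirectional class, the start site was within 1000 bases of the start of a protein-coding gene on the other strand (head to head). Exons of 84 overlapped exons of a protein-coding gene on the opposite strand, in 15 of them over at least 50% of the lncRNA's exonic length, and 5 overlapped a coding gene on their own strand. The remaining 44 had no exonic overlap with a protein-coding gene on either strand. The quantification's strand setting is not given in the sources used here. For the 84, if strand was not used, reads of the lncRNA and of its opposite-strand partner cannot be told apart.

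Host genes formed a small group. snoRNA genes lay inside 6 of the 130: 2410006H16Rik (Snord49a, Snord49b and Snord65), Cct6a (Snora15), 1110038B12Rik (Snord52), Zfas1 (Snord12), 1810032O08Rik (Snord1a, Snord1b and Snord1c) and AA465934 (Snord7). MicroRNA genes lay inside 5, among them Gm13648 (Mir200a, Mir200b and Mir429) and 1700016P03Rik (Mir132 and Mir212).

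The 8 most abundant in the day 0 nucleus were 2410006H16Rik with a mean of 323 FPKM, Ifi30 (174), Cct6a (132), 1110038B12Rik (89.4), Zfas1 (86.6), Gm9828 (78.6), Firre (45.1) and Gm26631 (30.6). Over all 130 the median was 4.89 FPKM, and 33 reached 10 FPKM. Just above the limit were Gm13657 (2.11), Gm9939 (2.10) and 2810029C07Rik (2.05), and just below it Gm12945 (1.95), D330023K18Rik (1.94) and Gm16283 (1.91). Together the 130 took 0.451% to 0.503% of the summed FPKM of a day 0 nuclear library, 0.3805% to 0.3845% of a day 0 cytoplasmic library and 0.348% to 0.360% of a day 0 whole cell library.

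Sequences 250 bases before to 50 bases after the start were found in RefSeq (GRCm38.p6) for 85 of the 130. They held a median of 17 CpG dinucleotides, against 7 over all 27025 promoters of the same length. The 45 that start head to head with a coding gene had a median of 25 and the other 40 a median of 12. TATAAA, the core of the TATA box, was found on either strand in 5.88% of the 85 and in 14.2% of all promoters. The ETS factor core CCGGAAG was found in 22.2% of the 45 head-to-head promoters, in 7.5% of the other 40 and in 9.12% of all. CCAAT (either strand) was in 38.8% of the 85 and in 37.9% of all, and the E-box CACGTG in 12.9% and 7.24%. These are letter matches in a fixed window, with no measure of binding. The lncRNAs were chosen by level and the 27025 promoters were not, so differences from all promoters cannot be assigned to the class. Promoters matched for level were not compared.

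Promoters of 4 genes whose levels changed are shown, 5′ to 3′ on the lncRNA's strand (minus for the first 3 and plus for the last), with CpG dinucleotides and any of the motifs above in capitals. The first 3 belong to lncRNAs that start head to head with a coding gene, and hold 33, 31 and 35 CpGs. 2810408I11Rik and its partner Ccnyl1 also overlap at their exons. In the day 12 cytoplasm 2810408I11Rik fell and 4930506C21Rik rose while the head-to-head partner did not pass the test. At day 10 1700007L15Rik fell while its partner rose. The last belongs to A230004M16Rik, which rose most, and holds 19.
2810408I11Rik (chr1:64690610-64690909): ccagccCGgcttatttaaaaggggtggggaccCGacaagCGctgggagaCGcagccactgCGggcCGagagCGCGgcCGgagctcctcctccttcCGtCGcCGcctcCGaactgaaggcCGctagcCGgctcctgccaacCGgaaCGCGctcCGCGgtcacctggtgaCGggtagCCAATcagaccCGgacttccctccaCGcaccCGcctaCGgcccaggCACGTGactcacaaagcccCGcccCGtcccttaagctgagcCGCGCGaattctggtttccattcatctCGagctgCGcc
1700007L15Rik (chr16:33380687-33380986): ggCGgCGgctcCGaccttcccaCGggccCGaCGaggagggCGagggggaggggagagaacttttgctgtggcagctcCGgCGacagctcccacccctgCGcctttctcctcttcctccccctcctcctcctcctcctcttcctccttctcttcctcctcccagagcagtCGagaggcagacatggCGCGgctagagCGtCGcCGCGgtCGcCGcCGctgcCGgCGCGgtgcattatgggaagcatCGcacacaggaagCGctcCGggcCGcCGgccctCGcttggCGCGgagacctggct
4930506C21Rik (chr17:8311069-8311368): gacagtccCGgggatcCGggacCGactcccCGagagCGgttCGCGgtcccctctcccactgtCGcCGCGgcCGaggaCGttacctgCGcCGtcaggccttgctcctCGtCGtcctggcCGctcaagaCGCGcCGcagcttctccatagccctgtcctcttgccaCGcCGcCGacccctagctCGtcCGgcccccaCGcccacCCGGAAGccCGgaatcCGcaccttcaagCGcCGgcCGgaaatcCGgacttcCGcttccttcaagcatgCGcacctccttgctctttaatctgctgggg
A230004M16Rik (chr11:41710094-41710393): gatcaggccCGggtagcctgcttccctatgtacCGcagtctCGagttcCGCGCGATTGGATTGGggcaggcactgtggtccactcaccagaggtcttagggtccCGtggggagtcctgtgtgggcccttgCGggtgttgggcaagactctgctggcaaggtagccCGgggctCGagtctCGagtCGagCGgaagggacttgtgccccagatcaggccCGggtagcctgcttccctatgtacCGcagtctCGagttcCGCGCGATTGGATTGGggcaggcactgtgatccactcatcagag
The capitals in the 2810408I11Rik promoter include a CCAAT box and an E-box, and those in the 4930506C21Rik promoter an ETS core. In A230004M16Rik the CCAAT box stands on the other strand, read as ATTGG.

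Loss of Dicer removes microRNAs, so the genes were also searched for seed matches. The stem cell microRNAs shown first share the seed AAGUGCU (bases 2 to 8, in capitals), and let-7 carries another. Their mature sequences in RefSeq are these.
miR-294-3p: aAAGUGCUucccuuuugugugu
miR-295-3p: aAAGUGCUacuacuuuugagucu
miR-291a-3p: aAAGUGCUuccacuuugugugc
miR-302d-3p: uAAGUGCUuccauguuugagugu
let-7a-5p: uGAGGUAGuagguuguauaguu
The matching letters AGCACTT were found on the sense strand of the longest transcript in 17 of the 130 genes (13.1%), and in 191 of 1299 other lncRNA genes measured in the fractions (14.7%). The let-7 match CTACCTC was found in 22 (16.9%), and in 138 of the 1299 (10.6%). Median lengths of the transcripts searched were 1621.5 bases for the 130 and 1218 for the 1299. Sites per kb were 0.079 and 0.107 for miR-290 and miR-302, and 0.099 and 0.077 for let-7. Among the 130, median lengths were 1970 bases with the miR-290 and miR-302 match and 1536 without it. The comparisons below were not matched for length. Of the 17 genes with the miR-290 and miR-302 match 1, Tctn2, passed the test as higher in whole cells at day 10, and of the 106 measured genes without it 14 did. Over all genes 27.7% passed as higher. Median log2 changes at day 10 were -0.23 for the 17 with the match and -0.05 for the 106 without it. The other lncRNA genes lay the other way round, with medians of 0.11 for 141 measured genes with the match and 0.02 for 830 without it, and 24 and 141 of them passed as higher. For let-7, 4 of the 20 measured genes with the match and 11 of 103 without it were higher, and among the other lncRNA genes 19 of 101 and 146 of 870. The sites below, with the match in capitals, belong to risers (Zswim6 and Tctn2) and to Gm12743, which was lower at day 10 (log2 change -0.70 ± 0.16 SE, limma adjusted p = 0.00366).
Zswim6 let-7 match: tcacctctctcCTACCTCatgatgctgaa
Tctn2 let-7 match: agttgccattaCTACCTCagtcagagcaa
Tctn2 miR-290 and miR-302 match: tgggaccgctcAGCACTTgagaagtggta
Gm12743 miR-290 and miR-302 match: cagaaggagccAGCACTTttgcctacaca
A match of letters is no evidence of binding. A230004M16Rik, Gm15270 and Usp46os2, the genes with the largest rises at day 10, held neither match for miR-290 and miR-302 nor one for let-7.

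Nucleus against cytoplasm was tested at day 12, in libraries that did not choose the genes. FPKM is relative within a library, so these values say nothing on how much RNA a fraction held. Choosing by the level in day 0 nuclei favours nuclear genes at day 12 too, and the counts are to be read with that. In the fit across the 17124 genes that averaged 0.5 FPKM or more in any fraction group (limma on log2(FPKM + 0.5), Benjamini-Hochberg adjusted p under 0.05), 53 of the 130 passed: 44 were higher in the nucleus and 9 higher in the cytoplasm. Over all genes 34.1% passed, 18.4% as higher and 15.7% as lower in the nucleus. The median log2 difference was 0.36 for the 130 and 0.06 for all genes. For the 1125 measured lincRNA and antisense genes, which were not chosen by nuclear level, the median was 0.27, with 261 higher and 69 lower. With quantile normalization the split of the 130 was 29 against 14, where over all genes 12.4% passed as higher and 18.9% as lower. Without replicate 3 of nucleus day 0 and replicate 1 of nucleus day 12, a choice made after seeing the data, 88 of 129 measured genes passed (65 and 23), where 60.0% of all genes passed, 33.2% as higher and 26.8% as lower. With only the 2 groups compared in the fit, which leaves out the day 0 nuclei, 60 of 127 passed (48 and 12), where 38.6% of all genes passed, and 47 of the 53 were among them.

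**Figure D1:**
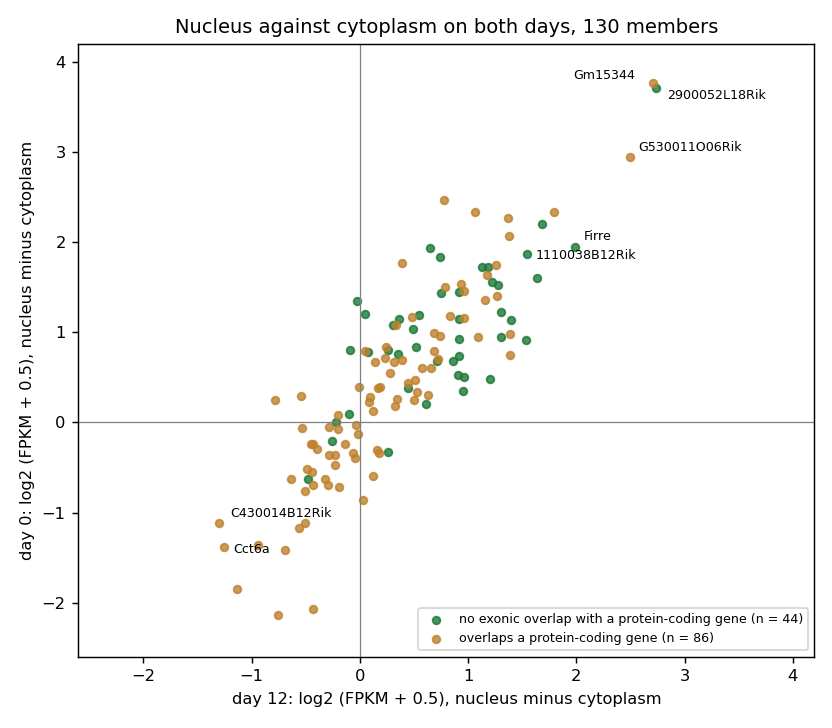
Difference in log2(FPKM + 0.5) between nucleus and cytoplasm for each of the 130 genes, at day 12 (x axis) and day 0 (y axis). Positive values are higher in the nucleus, green points are the 44 genes with no exonic overlap with a protein-coding gene and brown points the other 86. The largest day 12 differences were those of 2900052L18Rik (2.74) and Gm15344 (2.71), and the day 0 axis is a description since those nuclei chose the genes.

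The most nuclear was 2900052L18Rik (chr11:120229802-120231585, minus strand), a lncRNA with no coding overlap. It had 11.5, 9.66 and 10.2 FPKM in day 12 nuclei, against 1.65, 0.702 and 1.20 FPKM in day 12 cytoplasm, a log2 difference of 2.74 ± 0.31 (SE, limma adjusted p = 0.000142). Each nuclear library was above every cytoplasmic library. G530011O06Rik, on the X chromosome opposite Mid1 (a ubiquitin ligase gene), had 5.22, 4.45 and 5.17 FPKM in nuclei, against 0.401, 0.429 and 0.576 FPKM in cytoplasm, a difference of 2.49 ± 0.37 (SE, limma adjusted p = 0.000563). Its partner Mid1 differed by nearly the same amount, 2.59 ± 0.14 (SE, limma adjusted p = 3.3e-06). Gm15344, which overlaps 19.95% of its exons with the chaperone gene Hsp90b1 on the same strand, had 5.47, 2.52 and 2.10 FPKM in nuclei and was listed at 0.17, 0 and 0 FPKM in cytoplasm, a difference of 2.71 ± 0.29 (SE, limma adjusted p = 9.43e-05). Without the 2 nuclear libraries that stood apart the differences were 2.67 for 2900052L18Rik, 2.46 for G530011O06Rik, 2.54 for Mid1 and 2.34 for Gm15344, whose highest nuclear value was that of replicate 1.

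Firre (ENSMUSG00000085396, chrX:50555744-50635321, minus strand) is an X-linked lncRNA known to stay in the nucleus, where it binds the matrix protein hnRNPU. It had 25.6, 13.7 and 16.9 FPKM in day 12 nuclei, against 5.29, 3.17 and 4.41 FPKM in day 12 cytoplasm, a log2 difference of 1.98 ± 0.24 (SE, limma adjusted p = 0.000166). Without the 2 nuclear libraries that stood apart the difference was 1.74. On day 0 its nuclear libraries had 44.3, 54.9 and 36.2 FPKM and its cytoplasmic ones 11.5, 11.4 and 10.6 FPKM. In both fractions the day 12 libraries lay below the day 0 libraries without overlap. The nuclear part is a description, since the day 0 nuclei chose the gene and a fall from that level is favoured by the choice. In the cytoplasm Firre fell by 1.31 ± 0.24 on the log2 scale (SE, limma adjusted p = 0.00181), and with only the 2 cytoplasm groups in the fit the limma adjusted p was 0.000298. In whole cells at day 10 it had 7.02, 4.71 and 3.37 FPKM, against 10.2, 8.20 and 6.99 FPKM at day 0, and the change of -0.73 ± 0.29 (SE, limma adjusted p = 0.0582) did not pass, while with only the 2 groups in the fit it did (limma adjusted p = 0.0316). Over the 9 group means, the genes among the 130 with the closest pattern to Firre were Gm15286 (Pearson r = 0.977), Gm16153 (0.971) and Abhd1 (0.968). Those means include the day 0 nuclei that chose all 130 genes. A shared high level there may raise these r values and those given for other genes below, which are descriptions.

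Other named lncRNAs were nuclear as well. Crnde had 2.66, 3.89 and 2.98 FPKM in day 12 nuclei, against 1.00, 1.31 and 1.22 FPKM in cytoplasm (log2 difference 1.12 ± 0.23 SE, limma adjusted p = 0.00354), and BB218582 had 2.15, 2.25 and 2.84 against 0.334, 0.541 and 0.346 FPKM (log2 difference 1.68 ± 0.22 SE, limma adjusted p = 0.000292). Gm1976 had 10.8, 12.8 and 13.0 FPKM, against 4.07, 3.14 and 3.51 FPKM in cytoplasm (log2 difference 1.64 ± 0.16 SE, limma adjusted p = 6.15e-05). All 3 were separated from the cytoplasm in every library. Eldr, at 1.16, 2.57 and 2.29 FPKM in nuclei and 0.469, 0.627 and 0.411 FPKM in cytoplasm, did not pass (limma adjusted p = 0.0655). Eldr passed with only the 2 groups in the fit (limma adjusted p = 0.0114) and without the 2 nuclear libraries that stood apart (log2 difference 1.55, limma adjusted p = 2.01e-05). Without those libraries the differences were 1.23 for Crnde, 1.75 for BB218582 and 1.72 for Gm1976.

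Of the 6 snoRNA hosts, 4 were higher in the day 12 nucleus, 1 lower and 1, AA465934, did not pass. Without the 2 nuclear libraries that stood apart 5 were higher and 1 lower. The shares over all genes were 18.4% higher and 15.7% lower, and 33.2% and 26.8% without those libraries. Choosing by day 0 nuclear level favours nuclear calls for the hosts too. 1110038B12Rik, host of Snord52, had 60.1, 47.5 and 45.7 FPKM in nuclei, against 17.3, 16.9 and 17.1 FPKM in cytoplasm (log2 difference 1.54 ± 0.11 SE, limma adjusted p = 9.87e-06). Zfas1, host of Snord12, had 24.99, 36.1 and 34.3 FPKM, against 15.2, 16.4 and 12.1 FPKM (log2 difference 1.10 ± 0.16 SE, limma adjusted p = 0.00063). For both hosts the fractions did not overlap. 2410006H16Rik had 52.4, 114 and 102 FPKM in nuclei, against 33.4, 39.7 and 30.0 FPKM in cytoplasm, a difference of 1.303 ± 0.40 (SE, limma adjusted p = 0.0289). That call was lost when cytoplasm day 12 replicate 1, 2 or 3 or nucleus day 12 replicate 2 or 3 was left out (differences of 1.09 to 1.41, limma adjusted p of 0.0544 to 0.0969), and without the 2 nuclear libraries that stood apart the difference was 1.65. Without the same libraries it was 1.42 for 1110038B12Rik and 1.26 for Zfas1. Cct6a was the host that was lower in the nucleus.

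Cct6a encodes a subunit of the cytosolic chaperonin CCT. It had 111, 125 and 128 FPKM in day 12 nuclei, against 295, 299.6 and 274 FPKM in cytoplasm, a log2 difference of -1.25 ± 0.11 (SE, limma adjusted p = 4.16e-05), with no overlap. C430014B12Rik, head to head with Mff (a receptor for mitochondrial fission), differed by -1.300 ± 0.21 (SE, limma adjusted p = 0.00106), with 5.54, 4.31 and 4.48 FPKM in nuclei, against 11.02, 15.6 and 11.1 FPKM in cytoplasm. Mff itself differed by -0.74 ± 0.18 (SE, limma adjusted p = 0.00822). 2810408I11Rik (log2 difference -0.79 ± 0.25 SE, limma adjusted p = 0.0318) and E230029C05Rik (log2 difference -0.64 ± 0.21 SE, limma adjusted p = 0.0394) were the next most cytoplasmic. The call for 2810408I11Rik was lost without cytoplasm day 12 replicate 1 or 2 or nucleus day 12 replicate 1 or 3 (differences of -0.79 to -0.52, limma adjusted p of 0.0746 to 0.1). That for E230029C05Rik was lost without cytoplasm day 12 replicate 1 or 2 or nucleus day 12 replicate 2 or 3 (limma adjusted p of 0.0807 to 0.145). With only the 2 groups in the fit neither 2810408I11Rik (limma adjusted p = 0.0659) nor E230029C05Rik (limma adjusted p = 0.0512) passed. Without the 2 nuclear libraries that stood apart the differences were -1.19 for Cct6a, -1.40 for C430014B12Rik, -0.72 for Mff, -0.52 for 2810408I11Rik and -0.82 for E230029C05Rik.

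By exonic overlap the genes divided as follows. Among the 44 with no exonic overlap with a coding gene, 21 were higher in the day 12 nucleus, none was lower and the median log2 difference was 0.81. Among the 86 that overlapped one, 23 were higher and 9 lower, with a median of 0.17. Without the 2 nuclear libraries that stood apart, 31 of the 44 were higher and 2 lower (median 0.93), and of 85 measured genes with overlap 34 were higher and 21 lower (median 0.14). The difference between these groups was not tested. They were not matched for length or level. The shares over all genes were 18.4% higher and 15.7% lower, and 33.2% and 26.8% without the 2 nuclear libraries. Choosing by day 0 nuclear level favours nuclear calls in both groups.

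In the day 0 fractions, given as a description, 54 of the 130 were past the same limit as higher in the nucleus and 15 as lower (41.8% of all genes passed), and the median log2 difference was 0.64. Without replicate 3 of nucleus day 0 these were 62 and 14 of 129, with a median of 0.45, where 30.3% of all genes passed as higher and 19.7% as lower. A comparison of the nuclei of days 12 and 0 had 11 past the limit as higher and 43 as lower, where 36.7% of all genes passed, and without the 2 nuclear libraries that stood apart 19 and 54, where 56.5% passed. Since day 0 nuclei chose the genes, a fall from that level is favoured by the choice and nothing is read from it.

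The day 12 cytoplasm was compared with the day 0 cytoplasm, which did not choose the genes. Choosing by the level in day 0 nuclei may still favour falls from day 0 here, and the counts are to be read with that. Of the 130, 35 passed: 12 were higher and 23 lower at day 12, where over all genes 32.6% passed, 16.0% as higher and 16.6% as lower. The median log2 change was -0.17 for the 130 and -0.01 for all genes. With only the 2 cytoplasm groups in the fit, which leaves out the nuclei, 72 of 121 measured genes passed, 24 of them higher and 48 lower and all 35 among them, where 64.7% of all genes passed, 30.7% as higher and 33.9% as lower. In the fit of all fractions, of the 44 without coding overlap 1 was higher and 11 lower, and of the 86 with overlap 11 were higher and 12 lower.

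The snoRNA hosts 2410006H16Rik and Zfas1 fell in the cytoplasm. 2410006H16Rik (ENSMUSG00000086841, chr11:62602877-62604807, plus strand) had 33.4, 39.7 and 30.0 FPKM in day 12 cytoplasm, against 158, 136 and 142 FPKM at day 0, a log2 change of -2.07 ± 0.40 (SE, limma adjusted p = 0.00279). Zfas1 (ENSMUSG00000074578, chr2:167062934-167065862, plus strand) had 15.2, 16.4 and 12.1 FPKM, against 45.2, 39.9 and 48.9 FPKM at day 0, a change of -1.59 ± 0.16 (SE, limma adjusted p = 5.8e-05). Neither gene's day 12 libraries overlapped those of day 0. 1110038B12Rik fell by 0.48 ± 0.11 on the log2 scale (SE, limma adjusted p = 0.00577), with 17.3, 16.9 and 17.1 FPKM at day 12, against 23.7, 24.1 and 24.4 FPKM at day 0. Over the 6 hosts, 3 were lower, none was higher and the median change was -0.43, and with only the 2 groups in the fit 5 were lower. Over all genes 16.6% passed as lower, and 33.9% with only the 2 groups in the fit. The choice by day 0 nuclear level may favour these falls as well.

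In whole cells 2410006H16Rik had means of 88.7, 105, 59.5 and 46.7 FPKM on days 0, 4, 8 and 10, and 134, 122 and 146 FPKM in the libraries labelled day 12. At day 10 it had 50.1, 48.0 and 42.0 FPKM, against 105, 83.5 and 77.4 FPKM at day 0 (log2 change -0.91 ± 0.22 SE, limma adjusted p = 0.00413), with no overlap. Zfas1 had 17.9, 17.4 and 18.0 FPKM at day 10, against 34.8, 24.98 and 18.6 FPKM at day 0, a log2 change of -0.50 ± 0.19 (SE, limma adjusted p = 0.0499) at the edge of the threshold. That call was lost without day 0 replicate 1 (a change of -0.27, limma adjusted p = 0.236), day 0 replicate 2 or any of the day 10 replicates (limma adjusted p of 0.0943 to 0.111), and with only the 2 groups in the fit (limma adjusted p = 0.0588). Its head-to-head partner Znfx1, a helicase-domain zinc finger gene whose start lies 81 bases away, moved the other way. Znfx1 had 9.11, 10.5 and 9.28 FPKM at day 10, against 2.78, 2.89 and 3.10 FPKM at day 0 (log2 change 1.56 ± 0.26 SE, limma adjusted p = 0.000364). The mean of Zfas1 over that of Znfx1 ran from 1.39 to 28.2 among the 9 groups, with the highest value in the day 0 nuclei that chose the gene. Closest to 2410006H16Rik over the 9 group means were Gm13261 (r = 0.955), Zfas1 (0.934) and 4833417C18Rik (0.930).

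Gm13061 had the largest fall in the cytoplasm. It lies opposite Lin28a, the RNA-binding protein that blocks the maturation of let-7, with 35.2% of its exons overlapping it, and starts 694 bases from it. It had 3.69, 3.20 and 2.51 FPKM at day 12, against 21.7, 26.3 and 27.4 FPKM at day 0 (log2 change -2.83 ± 0.54 SE, limma adjusted p = 0.00261). Lin28a had 15.5, 14.5 and 15.1 FPKM, against 79.7, 93.5 and 88.5 FPKM (log2 change -2.49 ± 0.30 SE, limma adjusted p = 0.000155). Both were separated without overlap, and over the 9 groups the ratio of the lncRNA to Lin28a was between 0.157 and 0.320. Gm14817, with 67.2% of its exons opposite Pdzd4 (a PDZ-domain gene), had 2.84, 2.56 and 2.75 FPKM at day 12, against 9.51, 9.19 and 8.25 FPKM at day 0 (log2 change -1.56 ± 0.23 SE, limma adjusted p = 0.00049), and Pdzd4 changed by -1.52 ± 0.15 (SE, limma adjusted p = 4.15e-05). 4833417C18Rik, with no coding overlap, had 0.618, 1.00 and 0.768 FPKM, against 3.39, 3.82 and 4.17 FPKM (log2 change -1.74 ± 0.31 SE, limma adjusted p = 0.00178).

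Rises in the cytoplasm were led by A230004M16Rik, Gm15270, 4930506C21Rik and D330041H03Rik. A230004M16Rik (ENSMUSG00000087306, chr11:41710342-41973117, plus strand) had 10.0, 10.0 and 11.7 FPKM at day 12, against 1.79, 1.54 and 1.51 FPKM at day 0 (log2 change 2.39 ± 0.44 SE, limma adjusted p = 0.00216). Gm15270 had 36.5, 31.6 and 28.0 FPKM, against 7.60, 8.06 and 9.17 FPKM (log2 change 1.89 ± 0.21 SE, limma adjusted p = 9.23e-05). In both, every day 12 library was above every day 0 library. 4930506C21Rik had 6.44, 6.95 and 8.43 FPKM, against 3.13, 2.66 and 2.11 FPKM (log2 change 1.32 ± 0.22 SE, limma adjusted p = 0.00111), and D330041H03Rik 4.19, 4.29 and 4.54 FPKM, against 1.39, 1.92 and 1.44 FPKM (log2 change 1.22 ± 0.16 SE, limma adjusted p = 0.000278).

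In whole cells 123 of the 130 reached a mean of 0.5 FPKM in 1 of the 5 day groups, and the fit held 15991 genes. At day 4 against day 0, 4 of the 123 passed (2 higher and 2 lower), where over all genes 6.7% passed, 4.88% as higher and 1.82% as lower. At day 8, 21 passed (7 higher and 14 lower), where 29.8% of all genes passed, 20.2% as higher and 9.62% as lower. Day 10 against day 0 gave 28 (15 higher and 13 lower), where 43.7% passed over all genes, 27.7% as higher and 16.0% as lower. The median log2 change at day 10 was -0.07 for the 123 and 0.09 for all genes. For the 910 measured lincRNA and antisense genes, 28.4% passed at day 10. Day 10 against day 4 gave 31 (17 higher and 14 lower), where 37.4% of all genes passed, 23.3% as higher and 14.2% as lower. In the libraries labelled day 12 against day 0, 5 passed (4 higher and 1 lower), where 13.6% of all genes passed, 10.2% as higher and 3.34% as lower. All comparisons with day 0 share its 3 libraries. Choosing by the level in day 0 nuclei may favour falls from day 0 in whole cells too, a limit that all genes do not share.

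The counts moved more when only the 2 groups compared were in the fit. At day 4 none of 120 measured genes passed, where 2.95% of all genes passed. At day 8, 44 of 118 passed (15 higher and 29 lower), where 28.2% of all genes passed as higher and 15.9% as lower. Day 10 against day 0 gave 49 of 123 (20 higher and 29 lower), where 35.9% of all genes passed as higher and 22.4% as lower. Day 10 against day 4 gave 14 of 123 (8 higher and 6 lower), where 17.8% of all genes passed. In the libraries labelled day 12, 32 of 122 passed and the split turned round to 13 higher and 19 lower, where 17.0% of all genes passed as higher and 8.42% as lower. Without day 4 replicate 3, which stood apart, day 10 against day 4 gave 37 of 124 in the fit of all whole cell groups (17 higher and 20 lower), where 40.2% of all genes passed.

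Scaling moved the split of directions. With quantile normalization the higher and lower counts were 1 and 4 at day 4, 7 and 24 at day 8, 10 and 29 at day 10, 13 and 22 for day 10 against day 4, and 2 and 4 in the libraries labelled day 12. Over all genes 4.32% passed as higher and 3.33% as lower at day 4, and 15.3% and 18.0% at day 8. The shares were 20.8% and 26.0% at day 10, 18.7% and 19.6% for day 10 against day 4, and 6.66% and 8.19% in the libraries labelled day 12. For the lncRNAs median-of-ratios scaling gave 1 and 3 at day 4, 14 and 21 at day 10 and 3 and 3 in the libraries labelled day 12. In those comparisons 1070, 7139 and 2056 of all genes passed in either direction. The median of all genes at day 10 moved by more than 0.1 on the log2 scale under quantile normalization, to -0.08, while that of the 123 moved to -0.25.

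Markers of cell types were counted in the same libraries. Over all genes 27.7% passed as higher and 16.0% as lower at day 10, and 16.0% as higher in the day 12 cytoplasm. Of 10 pluripotency genes 3 were higher and 2 lower at day 10. All 5 measured trophoblast markers were higher at day 10 and in the day 12 cytoplasm, with a summed level of 494 to 535 FPKM at day 10, against 120 to 170.0 FPKM at day 0, nearly all of it Krt8 and Krt18, while Elf5 stood at a mean of 0.10 FPKM at day 10 and 0.02 FPKM at day 0. Of 5 measured fibroblast markers 3 were higher and 1 lower at day 10 (summed level 684 to 720 FPKM, against 99.0 to 120 FPKM), mostly Vim, and Col3a1 had a mean of 0.35 FPKM at day 10 and 0.03 FPKM at day 0. Endoderm markers were higher in 2 of 7, mesoderm markers in 1 of 5, and neuroectoderm markers higher in 2 and lower in 1 of 5. Their part in the changes of the lncRNAs was not tested. In bulk libraries, fewer cells of a type and less RNA per cell cannot be told apart.

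**Figure D2:**
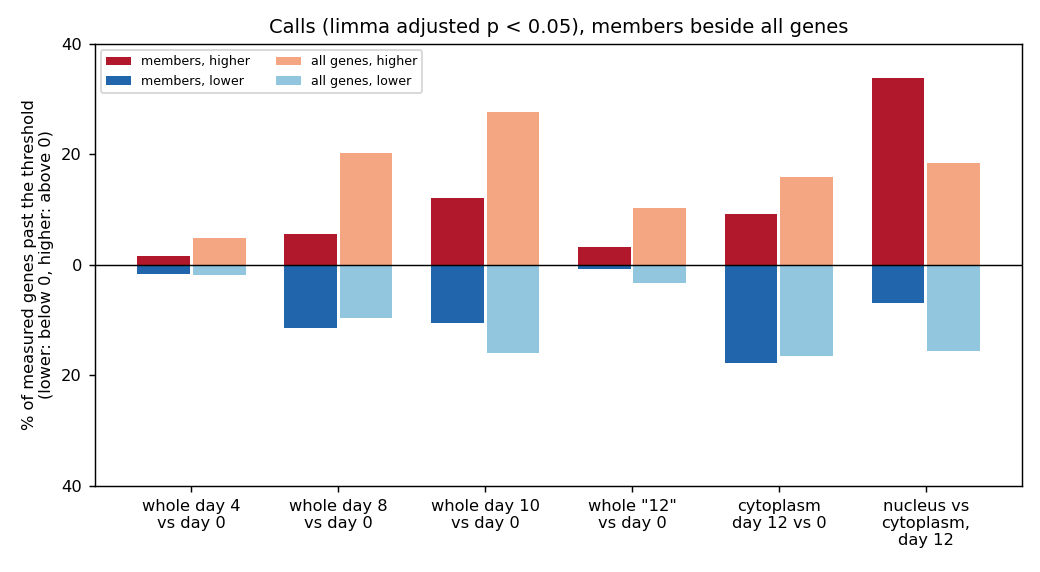
Share of measured genes past the threshold (limma adjusted p under 0.05) in 6 comparisons, with genes higher in the first-named group above 0 and lower ones below 0. Dark bars are the genes described here and pale bars all genes. At day 10 the share of higher calls was smaller for the lncRNAs (15 of 123) than for all genes (27.7%), and for nucleus against cytoplasm it was larger (44 of 130, beside 18.4%). The choice of the genes by their day 0 nuclear level may favour both differences.

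A230004M16Rik, a lncRNA of 9 exons, rose most. It had 7.96, 9.32 and 8.40 FPKM at day 10, against 0.919, 1.02 and 0.811 FPKM at day 0, a log2 change of 2.68 ± 0.35 (SE, limma adjusted p = 4.45e-05). At day 8 it had 4.10, 3.75 and 3.37 FPKM, a change from the same day 0 values of 1.58 ± 0.35 (SE, limma adjusted p = 0.00409). At both days every library was above the day 0 libraries. The day 4 libraries had 5.38, 4.92 and 1.18 FPKM (log2 change 1.42 ± 0.35 SE, limma adjusted p = 0.027), and the third of these, close to day 0, is the library that stood apart. The day 4 call was lost without any 1 of the 3 day 0 libraries or without day 4 replicate 1 or 2 (changes of 1.10 to 1.47, limma adjusted p of 0.0698 to 0.0967). The libraries labelled day 12 had 2.91, 2.40 and 1.83 FPKM, which did not pass (limma adjusted p = 0.0764). Its closest patterns over the 9 group means were Zswim6 (r = 0.907), Gm15270 (0.850) and Trerf1 (0.811).

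Gm15270 (ENSMUSG00000087400, chr10:24549441-24597108, minus strand) had 49.8, 46.7 and 48.5 FPKM at day 10, against 11.03, 16.7 and 14.1 FPKM at day 0 (log2 change 1.78 ± 0.40 SE, limma adjusted p = 0.00277). Its exons overlap those of Ccn2, the matricellular protein also called CTGF, over 32.4% of their length on the opposite strand. Ccn2 had 118, 111 and 115 FPKM at day 10, against 26.8, 35.0 and 32.2 FPKM at day 0 (log2 change 1.86 ± 0.19 SE, limma adjusted p = 4.6e-06). The ratio of Gm15270 to Ccn2 stayed between 0.346 and 0.454 over the 9 groups. Usp46os2 overlaps the deubiquitinase gene Usp46 over 29.8% and had 8.34, 6.69 and 9.29 FPKM at day 10, against 2.14, 2.25 and 2.62 FPKM at day 0 (log2 change 1.59 ± 0.24 SE, limma adjusted p = 0.00017). Usp46 changed by 1.19 ± 0.12 (SE, limma adjusted p = 3.59e-06). The day 10 libraries of both lncRNAs lay above all of day 0.

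Zswim6, a zinc finger gene that RefSeq lists as coding, had 9.65, 11.1 and 10.2 FPKM at day 10, against 3.06, 3.93 and 4.08 FPKM at day 0 (log2 change 1.38 ± 0.14 SE, limma adjusted p = 4.28e-06), and was already higher at day 8 (log2 change 0.99 ± 0.14 SE, limma adjusted p = 0.000137). Gm20412 lies wholly opposite Tgm2, a transglutaminase, and had 4.62, 5.80 and 3.43 FPKM, against 1.40, 1.65 and 1.73 FPKM (log2 change 1.27 ± 0.20 SE, limma adjusted p = 0.000172), beside a change of 1.08 ± 0.14 (SE, limma adjusted p = 3.91e-05) in Tgm2. B230206H07Rik, opposite Eps8l2 over 46.0%, changed by 0.82 ± 0.13 (SE, limma adjusted p = 0.000259). Gm13372, opposite the collagen gene Col5a1, peaked at day 8 with 3.80, 3.69 and 4.70 FPKM, against 1.36, 1.47 and 1.36 FPKM at day 0 (log2 change 1.26 ± 0.23 SE, limma adjusted p = 0.000969). Gm17167, with no coding overlap, had 1.58, 1.88 and 2.39 FPKM at day 8, against 0.377, 0.305 and 0.279 FPKM at day 0 (log2 change 1.57 ± 0.35 SE, limma adjusted p = 0.00414).

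2810408I11Rik (ENSMUSG00000087213, chr1:64679871-64690659, minus strand) fell most. Its levels were 2.19, 2.50 and 2.74 FPKM at day 10, against 12.2, 8.36 and 8.75 FPKM at day 0 (log2 change -1.77 ± 0.27 SE, limma adjusted p = 0.00017), and 4.60, 4.15 and 3.53 FPKM in day 12 cytoplasm, against 11.04, 11.7 and 11.6 FPKM at day 0 (log2 change -1.39 ± 0.25 SE, limma adjusted p = 0.00177). There was no overlap in either comparison. Its start, inside the CpG-rich window shown above, lies 204 bases from that of Ccnyl1, a cyclin Y-like gene. Exons of Ccnyl1 overlap 8.76% of the lncRNA's exonic length. Ccnyl1 had 8.47, 7.99 and 8.87 FPKM at day 10, against 8.81, 9.96 and 9.67 FPKM at day 0, and its change of -0.16 ± 0.13 (SE, limma adjusted p = 0.356) did not pass. The closest patterns were Gm20684 (r = 0.949), 1700007L15Rik (0.934) and 4833417C18Rik (0.811).

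1700007L15Rik starts 109 bases from Zfp148, a zinc finger transcription factor, with no exonic overlap, and the levels of the pair went opposite ways. The lncRNA had 0.190, 1.24 and 0.848 FPKM at day 10, against 2.07, 2.03 and 2.08 FPKM at day 0 (log2 change -1.12 ± 0.33 SE, limma adjusted p = 0.0131). Zfp148 had 9.50, 8.89 and 9.68 FPKM, against 3.51, 3.27 and 3.25 FPKM (log2 change 1.36 ± 0.09 SE, limma adjusted p = 1.35e-07). The call for the lncRNA was lost without day 10 replicate 1 (a change of -0.74, limma adjusted p = 0.0598), and in the cytoplasm, where it fell by 1.37 ± 0.38 (SE, limma adjusted p = 0.0172), without day 0 replicate 1 or 2 or day 12 replicate 2 or 3 (limma adjusted p of 0.0513 to 0.0721). Zfp148 changed in the cytoplasm by 1.298 ± 0.25 (SE, limma adjusted p = 0.00236).

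Further falls at day 10 were those of 2010204K13Rik, an X-linked lncRNA without coding overlap, with 11.4, 11.1 and 9.94 FPKM, against 24.9, 27.2 and 19.9 FPKM at day 0 (log2 change -1.11 ± 0.29 SE, limma adjusted p = 0.00688), and of Gm14817 (log2 change -1.34 ± 0.38 SE, limma adjusted p = 0.0117). Gm1976 had 2.38, 1.87 and 3.42 FPKM at day 8, against 8.29, 4.67 and 4.404 FPKM at day 0 (log2 change -1.02 ± 0.31 SE, limma adjusted p = 0.0261), and its day 8 call was lost without day 0 replicate 1 or day 8 replicate 1 or 2 (changes of -0.99 to -0.75, limma adjusted p of 0.0706 to 0.124). E330020D12Rik had 1.02, 1.17 and 1.43 FPKM, against 3.80, 2.23 and 2.66 FPKM (log2 change -0.97 ± 0.28 SE, limma adjusted p = 0.0175), and lost its call without day 0 replicate 1 or day 8 replicate 1 (limma adjusted p of 0.0629 and 0.0839). 4833417C18Rik was lower at day 8 (log2 change -0.92 ± 0.16 SE, limma adjusted p = 0.000727) with no overlap between the groups.

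At day 4 the 4 calls were A230004M16Rik, AI662270, R74862 and Gm20650. AI662270 had 4.54, 4.94 and 8.44 FPKM, against 3.98, 2.84 and 2.49 FPKM at day 0 (log2 change 0.82 ± 0.22 SE, limma adjusted p = 0.0417). Its call was lost without day 4 replicate 3, the library that stood apart (0.56, limma adjusted p = 0.0737), and without day 0 replicate 2 or 3 (limma adjusted p of 0.141 and 0.173). R74862, whose start lies 947 bases from that of Cd81 (a tetraspanin), had 3.20, 4.205 and 2.29 FPKM, against 6.41, 6.62 and 7.45 FPKM (log2 change -1.004 ± 0.17 SE, limma adjusted p = 0.0019). Gm20650, wholly opposite Tmem219, had 4.65, 4.499 and 4.80 FPKM, against 6.41, 6.55 and 7.32 FPKM (log2 change -0.49 ± 0.13 SE, limma adjusted p = 0.034). That call was lost without any 1 of the day 0 libraries or without day 4 replicate 1 or 2 (limma adjusted p of 0.0673 to 0.144). Without day 4 replicate 3, 8 genes passed at day 4, 6 of them higher and 2 lower, where 10.7% of all genes passed. Without day 4 replicate 2, 8 passed as well, 2 of them higher and 6 lower, where 8.68% of all genes passed. Without day 4 replicate 3 the changes were 1.999 for A230004M16Rik, -0.81 for R74862 and -0.52 for Gm20650. None of the 4 day 4 calls passed with only the 2 groups in the fit (limma adjusted p of R74862 0.0667).

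R74862 was lower than at day 0 in whole cells of days 4 and 8 and higher in the day 12 cytoplasm. At day 8 the change was -0.60 ± 0.17 (SE, limma adjusted p = 0.0161), a call lost without day 0 replicate 3 or day 8 replicate 3 (limma adjusted p of 0.0629 and 0.0614), and at day 10 it was -0.39 ± 0.17 (SE, limma adjusted p = 0.0781) and did not pass. In the day 12 cytoplasm it had 3.49, 3.80 and 5.02 FPKM, against 2.19, 2.35 and 2.13 FPKM at day 0 (log2 change 0.75 ± 0.16 SE, limma adjusted p = 0.00506). Cd81 rose in the same comparison (log2 change 1.04 ± 0.15 SE, limma adjusted p = 0.000433). In the libraries labelled day 12 R74862 had 3.20, 2.85 and 3.35 FPKM, against the day 0 whole cell values above (log2 change -1.01 ± 0.17 SE, limma adjusted p = 0.00139). The ratio of R74862 to Cd81 was 0.0882 in day 0 whole cells and 0.0242 to 0.0375 in the other 8 groups, and each whole cell change above is against that day 0 group. The difference between whole cells and cytoplasm was not tested.

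The other calls of the libraries labelled day 12 were B230206L02Rik, D330041H03Rik, B230206H07Rik and Gm20412. D330041H03Rik had 1.95, 2.00 and 2.32 FPKM, against 1.10, 0.743 and 1.04 FPKM at day 0 (log2 change 0.83 ± 0.13 SE, limma adjusted p = 0.000748), and B230206H07Rik 4.88, 4.09 and 4.30 FPKM, against 2.66, 2.35 and 2.65 FPKM (log2 change 0.69 ± 0.13 SE, limma adjusted p = 0.00411). B230206L02Rik (log2 change 1.27 ± 0.34 SE, limma adjusted p = 0.0256) lost its call without day 0 replicate 2 or 3 or any of the libraries labelled day 12 (limma adjusted p of 0.0596 to 0.119). Gm20412 (log2 change 0.65 ± 0.20 SE, limma adjusted p = 0.0438) lost it without any 1 of the 6 libraries (limma adjusted p of 0.0776 to 0.129). A230004M16Rik, Gm15270, Usp46os2, Zswim6, 2810408I11Rik and 2410006H16Rik did not pass in these libraries.

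**Figure D3:**
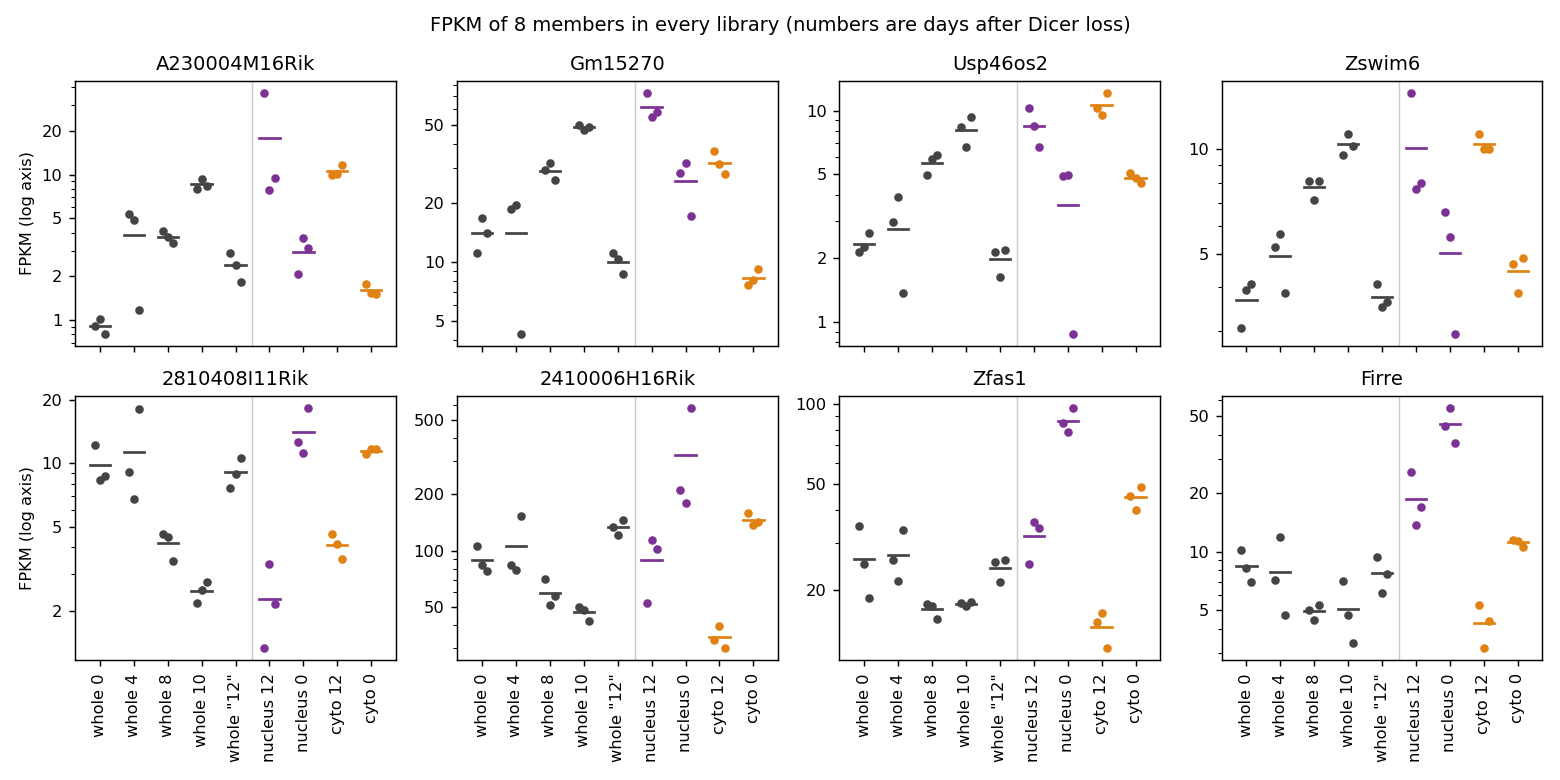
FPKM (log axis) of 8 genes in each of the 27 libraries, with points for libraries and a line for the mean of each group. Grey is whole cells by day ("12" marks the libraries labelled day 12), purple nucleus and orange cytoplasm. In whole cells the top row was higher at day 10 than at day 0, the bottom row was lower at day 10 than at day 0 by mean, with the Firre change not past the threshold, and the libraries labelled day 12 lie near day 0 in most panels.

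Log2 changes of the lncRNAs were set beside those of their coding partners. Over the 79 overlapping pairs measured in whole cells, the correlation across genes of the 2 log2 changes at day 10 was 0.68, and over 82 pairs in the cytoplasm it was 0.74. In the 15 pairs with at least 50% overlap these values were 0.94 and 0.98. Genes are not independent replicates, and overlapping pairs share reads if strand was not used, so no p is given. At day 10, 16 pairs had both genes past the test and 15 of them changed in the same direction, and in the cytoplasm 17 of 18 did. For the 17 head-to-head pairs without any coding overlap the cytoplasmic correlation was -0.56, and for 14 such pairs at day 10 it was -0.57. Of those, both genes passed in 2 pairs in the cytoplasm and in 1 at day 10, in opposite directions each time. The other comparisons gave these pairs other values. Their correlation was 0.54 at day 4, -0.10 at day 8, -0.19 in the libraries labelled day 12, -0.30 between days 10 and 4 and 0.32 between the day 12 fractions. Both genes passed in the same direction in 1 of 2 pairs between days 10 and 4 and in 1 of 3 between the day 12 fractions. The overlapping pairs had 0.31 at day 4, 0.54 at day 8, 0.50 in the libraries labelled day 12, 0.55 between days 10 and 4 and 0.69 between the day 12 fractions. The difference between these correlations was not tested.

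**Figure D4:**
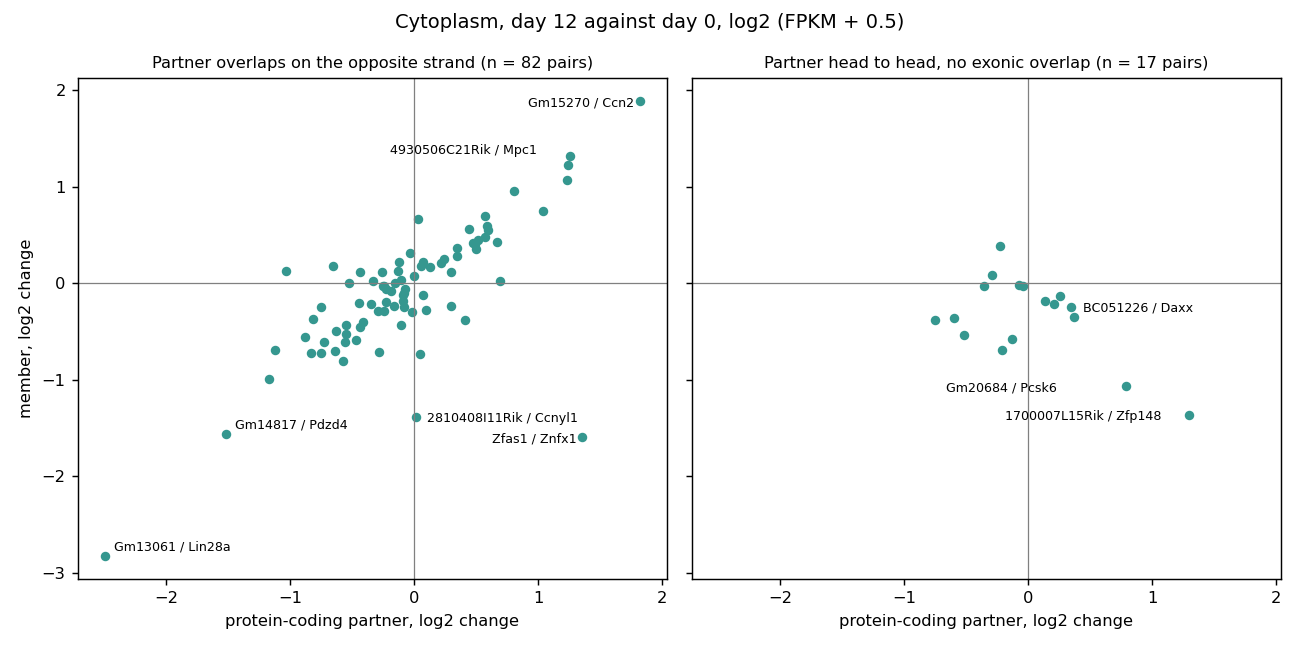
Log2 change (day 12 against day 0, cytoplasm) of each lncRNA (y axis) against that of its protein-coding partner (x axis). The left panel shows 82 pairs with exons overlapping on opposite strands and the right panel 17 pairs that start head to head without overlap. Points on the left run along the diagonal, Zfas1 and Znfx1 being the 1 pair in which both passed with opposite signs, and those on the right do not.

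Ratios of the lncRNA's FPKM to its partner's were also compared across groups. In the 72 overlapping pairs with both genes at a mean of 0.5 FPKM or more in every group, the highest ratio over the 9 groups was a median of 1.76 times the lowest, and under 2 times in 42. Ptpmt1, a mitochondrial phosphatase gene, and Kbtbd4 held a ratio of 1.09 to 1.33, and B230206H07Rik and Eps8l2 one of 0.944 to 1.18. 4930506C21Rik and Mpc1, a subunit of the mitochondrial pyruvate carrier, held one of 1.01 to 1.32. In the 9 head-to-head pairs without overlap that met the same limit the median was 4.47 and none was under 2. The 9 groups include the day 0 nuclei that chose the genes, and a high level there can widen a ratio's range. The medians are therefore a description, and the difference between them was not tested.

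4930506C21Rik and D330041H03Rik each start beside one coding gene and overlap another, and their values went with those of the one they overlap. 4930506C21Rik starts 22 bases from Sft2d1 and overlaps Mpc1 over 24.2% of its exons. In the day 12 cytoplasm, where it changed by 1.32 ± 0.22 on the log2 scale (SE), Mpc1 changed by 1.26 ± 0.17 (SE, limma adjusted p = 0.000271) and Sft2d1 by 0.11 ± 0.11 (SE, limma adjusted p = 0.521). D330041H03Rik starts 23 bases from Rnps1, a factor of the exon junction complex, and overlaps 24.4% with Abca3, a lipid transporter. At day 10 it had 3.09, 2.42 and 2.90 FPKM, against 1.10, 0.743 and 1.04 FPKM at day 0 (log2 change 1.18 ± 0.13 SE, limma adjusted p = 8.34e-06). Abca3 changed by 1.43 ± 0.20 (SE, limma adjusted p = 8.59e-05), and Rnps1 went the other way with 64.9, 61.5 and 72.9 FPKM, against 138, 129.7 and 152 FPKM (log2 change -1.07 ± 0.11 SE, limma adjusted p = 5.77e-06). These partners were chosen after their values were seen, apart from the head-to-head ones.

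Several of the remaining named genes did not pass at day 10. Ifi30, a lysosomal thiol reductase gene, had 73.3, 79.3 and 76.3 FPKM at day 10, against 74.2, 73.6 and 73.7 FPKM at day 0 (limma adjusted p = 0.865), and Gm26631 had 22.9, 21.6 and 20.9, against 24.0, 22.2 and 21.7 FPKM (limma adjusted p = 0.895). Gm9828, head to head with Btf3, was lower at day 8 (log2 change -0.51 ± 0.14 SE, limma adjusted p = 0.0174), a call lost without day 0 replicate 2 or day 8 replicate 1 or 3 (limma adjusted p of 0.0548 to 0.0722). BC051226, whose partner Daxx is a chaperone of histone H3.3, changed by 0.09 ± 0.19 (SE, limma adjusted p = 0.742) at day 10, Tmem134 by -0.21 ± 0.16 (SE, limma adjusted p = 0.32), Trerf1 by 0.28 ± 0.21 (SE, limma adjusted p = 0.318), Spata5l1 by -0.72 ± 0.37 (SE, limma adjusted p = 0.136), BC065397 by 0.27 ± 0.24 (SE, limma adjusted p = 0.406) and AA465934 by 0.11 ± 0.41 (SE, limma adjusted p = 0.858). None of these 6 passed at day 10, which does not show that they were unchanged. In the cytoplasm BC051226 was lower at day 12 (log2 change -0.35 ± 0.12 SE, limma adjusted p = 0.0465), a call lost without any 1 of the 6 libraries (limma adjusted p of 0.0675 to 0.148). It was higher in the day 12 nucleus than in the cytoplasm (log2 difference 0.44 ± 0.12 SE, limma adjusted p = 0.0166), a call lost without cytoplasm day 12 replicate 1 or 2 or nucleus day 12 replicate 2 (limma adjusted p of 0.0532 to 0.0596), and so was Tmem134 (log2 difference 0.91 ± 0.12 SE, limma adjusted p = 0.000331). Ifi30 had 49.9, 58.9 and 49.5 FPKM at day 8, below each day 0 library (log2 change -0.48 ± 0.18 SE, limma adjusted p = 0.0634), and 55.8, 57.1 and 58.8 FPKM in day 12 cytoplasm, against 111, 92.8 and 86.1 FPKM at day 0 (log2 change -0.75 ± 0.40 SE, limma adjusted p = 0.184). Neither of its changes passed in the fits of all groups, and both did with only the 2 groups in the fit (limma adjusted p of 0.00196 and 0.000353). The nuclear difference was 0.49 for BC051226 and 1.03 for Tmem134 without the 2 nuclear libraries that stood apart. Abhd1 was lower at day 8 (log2 change -0.58 ± 0.14 SE, limma adjusted p = 0.00663), beside a fall of its opposite-strand partner Preb (log2 change -0.33 ± 0.07 SE, limma adjusted p = 0.00408). Ptpmt1 (log2 change 0.52 ± 0.18 SE, limma adjusted p = 0.0358) and Tctn2 (log2 change 0.39 ± 0.13 SE, limma adjusted p = 0.0243), a gene of the ciliary transition zone, passed at day 10, and lost their calls without any 1 of the 6 libraries for Ptpmt1 (limma adjusted p of 0.0553 to 0.12) and without day 0 replicate 1 or 2 or any day 10 replicate for Tctn2 (0.0531 to 0.0748).

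Genes of nuclear RNA turnover and export were counted beside them. Of 19 measured genes of nuclear RNA decay (exosome subunits and cofactors), 2 were higher and 4 lower at day 10, with 2 and 5 in the day 12 cytoplasm. Of 23 genes of the Integrator complex and 3′ end cleavage, 1 was higher and 5 lower at day 10, and of 12 mRNA export genes 1 and 2. Over all genes 27.7% passed as higher and 16.0% as lower at day 10, and 16.0% and 16.6% in the day 12 cytoplasm. As a check of the fractions, 6 of 7 nuclear lncRNAs set aside by the rule, such as Malat1 and Neat1, were higher in the day 12 nucleus (median log2 difference 1.88), and 6 of 10 cytoplasmic mRNAs were lower (median -0.82). With the 2 deviating nuclear libraries left out, 7 of the 7 were higher (median 1.83), and of the 10 mRNAs 7 were lower and 1 higher (median -0.61). Some coding genes were also higher in the day 12 nucleus. Of 6 fibroblast markers 4 were higher and none lower, while of 10 pluripotency genes 1 was higher and 4 lower. The endoderm marker Col4a1 had a mean of 100 FPKM in day 12 nuclei and 13.5 FPKM in day 12 cytoplasm. A higher nuclear value is thus not particular to noncoding RNA, and its cause was not tested.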

How the data were processed

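PolyA RNA-seq was deposited as FPKM per gene in 27 libraries, and these FPKM values are the authors' own, per the file headers. TopHat2 (2.0.9), Cufflinks (1.3.0) and the build mm9 are listed in the submitters' processing notes. For the gene models and the use of strand, the setting was not given in the sources used here. Genes were matched by identifier to GENCODE M21 and RefSeq, whose GRCm38 coordinates are printed, and no coordinate was converted. The genes and lists were chosen with earlier results of these data known.

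Values were tested as log2(FPKM + 0.5), which understates changes of low genes, for genes averaging 0.5 FPKM or more in any group of the fit. limma 3.58.1 in R 4.3.3 (empirical Bayes with trend) was fitted to the 15 whole cell and the 12 fraction libraries separately, with Benjamini-Hochberg adjustment over all genes at 0.05. Tables and figures used Python 3.11.15, numpy 2.4.6, pandas 2.3.3 and matplotlib 3.10.9. Genes were named by rule: the 8 most abundant in day 0 nuclei, per tested comparison the 4 largest rises and 4 largest falls among calls whose groups did not overlap, the genes beside the FPKM limit, all with a symbol not of the Gm or Rik kind, their head-to-head coding neighbours, and Dicer1. Others, such as overlapping partners, were chosen after their values were seen. In data simulated from day 10 (15118 genes) limma recovered 78% of changes of 1 on the log2 scale and 97% of changes of 2, with 9 false calls among 184. From the cytoplasm (15962 genes) it recovered 52% and 90%, with 11 among 153. The real comparisons called 6987 and 5574 genes, so these rates are those of the simulated data and may not hold for the real tests. Alternatives were pseudocounts of 0.1 and 1, no filter or a mean of at least 1, median-of-ratios and quantile scaling, only the 2 groups compared, a replicate block, each library left out and, added after seeing the data, the fractions without 2 nuclear libraries. Depth in reads is unknown.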

Additional observations from a re-analysis of the deposited data

Results flagged for a closer look

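Gm17251 changed in opposite directions in the fractions. Its log2 change at day 12 against day 0 was 0.43 in the cytoplasm, with every day 12 library above every day 0 library, and -0.42 in the nucleus, with every day 12 library below every day 0 library. The difference between the fractions was not tested, and the nuclear libraries of day 0 chose the gene.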

How the results depend on the processing

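Counts of the lncRNAs past the threshold kept within 1.5 times of the reported count in most settings. At day 4 the count was 2 with no filter and 0 by limma with only the 2 groups compared, where 8 of 120 had an unadjusted p under 0.05. With only the 2 groups compared it was 44 at day 8 (44.0% of all genes passed), 49 at day 10 (58.3%), 32 in the libraries labelled day 12 (25.5%), 14 for day 10 against day 4 (17.8%), 72 in the cytoplasm (64.7%) and 13 for nucleus day 12 against day 0 (12.5%). Without 2 nuclear libraries it was 88 for nucleus against cytoplasm at day 12 (60.0%). The cause was not tested. Leaving out 1 library gave 1 to 8 at day 4, 15 to 17 at day 8, 21 to 26 at day 10, 3 to 5 in the libraries labelled day 12, 24 to 41 for day 10 against day 4, 24 to 26 in the cytoplasm, 36 to 57 for nucleus against cytoplasm at day 12, 58 to 76 at day 0 and 38 to 60 between the nuclei. At day 4 the count was 2 without day 0 replicate 1, 1 without day 0 replicate 2 or 3 and 8 without day 4 replicate 2 or 3. The 3 in the libraries labelled day 12 came without day 0 replicate 2 or 3 or labelled day 12 replicate 2.

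Replicate numbers did not pair the libraries (correlations of -0.278 to 0.199 in whole cells and -0.345 to 0.259 in the fractions). With a replicate block the counts were 4 at day 4, 22 at day 8, 30 at day 10, 5 in the libraries labelled day 12, 29 for day 10 against day 4, 34 in the cytoplasm, 48 and 69 for nucleus against cytoplasm at days 12 and 0, and 49 between the nuclei. Of 114 calls of named genes, 72 were kept in every setting and none was reversed. Depth in reads is unknown, which limits what can be said of genes near the filter.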
